A study of Lentinus brumalis with 11 samples.

Results

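A set of 4 members of the AA3 family of *Polyporus brumalis* (*Lentinus brumalis* in GEO) were followed across liquid culture and solid-state fermentation (SSF) of wheat straw. They were the 3 genes assigned to subfamily AA3_3, which holds the alcohol oxidases (ProtID # 1364967, 1467319 and 1484504), and the 1 gene assigned to subfamily AA3_4 (ProtID # 1404761), the subfamily of the pyranose 2-oxidases. They were grouped by their CAZy subfamily and not by their transcript levels, though earlier results of these data were known at the time. They make up 4 of the 18244 genes in the count table and 4 of the 36 AA3 genes in the study's annotation. All libraries came from the dikaryotic strain BRFM 985. The control was mycelium from 10-day liquid cultures with 2% malt extract (n = 3 libraries). For SSF, mycelium was first grown for 6 days on 2% malt extract, then spread on 20 g of sterilized wheat straw with copper, iron and manganese sulfates at 0.9 µmol each per g of straw, and kept at 28 °C under a moist air stream for 4 days (Day 4, n = 2), 10 days (Day 10, n = 3) or 15 days (Day 15, n = 3). With a preculture of 6 days, the whole time in culture was thus 10 days for the control and for Day 4, and longer for Days 10 and 15. The methods section of the paper gives an older inoculum, and with it Day 4 would be older than the control. Substrate, added metals, air stream and culture form (stationary liquid in the control) changed together between the control and SSF, and their parts cannot be told apart. The paper also describes grinding the mycelium before it was put on straw. No source used here gives the temperature of the control cultures. Reads were mapped to the genome of a monokaryon derived from this dikaryon, so transcripts of the other nucleus were counted only where they mapped to that genome.

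AA3 enzymes are flavoproteins of the GMC oxidoreductase superfamily. Alcohol oxidases oxidize methanol and other short primary alcohols to aldehydes and pass the electrons to oxygen, which yields hydrogen peroxide. In white-rot fungi, methanol is released from methoxyl groups of lignin and from methyl esters of pectin, and hydrogen peroxide is the oxidant used by lignin-active peroxidases (AA2). Pyranose 2-oxidases make hydrogen peroxide from glucose and other sugars. The substrates of the 4 enzymes encoded here were not measured.

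The 4 genes did not all move the same way against the control. On straw, 1364967 rose between 30.4-fold and 79.9-fold over the control and 1467319 rose between 2.15-fold and 5.14-fold, with the highest level of each at Day 4. In contrast, 1484504 fell at all 3 times, with fold changes between 3.43 and 5.93 downwards. The AA3_4 gene 1404761 did not pass the test against the control at any time. At an adjusted p of 0.05 (edgeR quasi-likelihood test, 15462 genes tested), 2 of the 4 genes were higher and 1 was lower at Day 4, where 62.3% of all tested genes were called, 30.1% as higher and 32.2% as lower. The counts were again 2 higher and 1 lower at Day 10, where 62.6% of all genes were called (31.5% higher and 31.1% lower). Day 15 gave 2 higher and 1 lower too, beside 66% of all genes (33% higher and 33% lower). With most genes called in each of these comparisons, 3 calls among 4 genes are close to the background. Comparisons with the control share the same 3 control libraries.

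**Figure D1:**
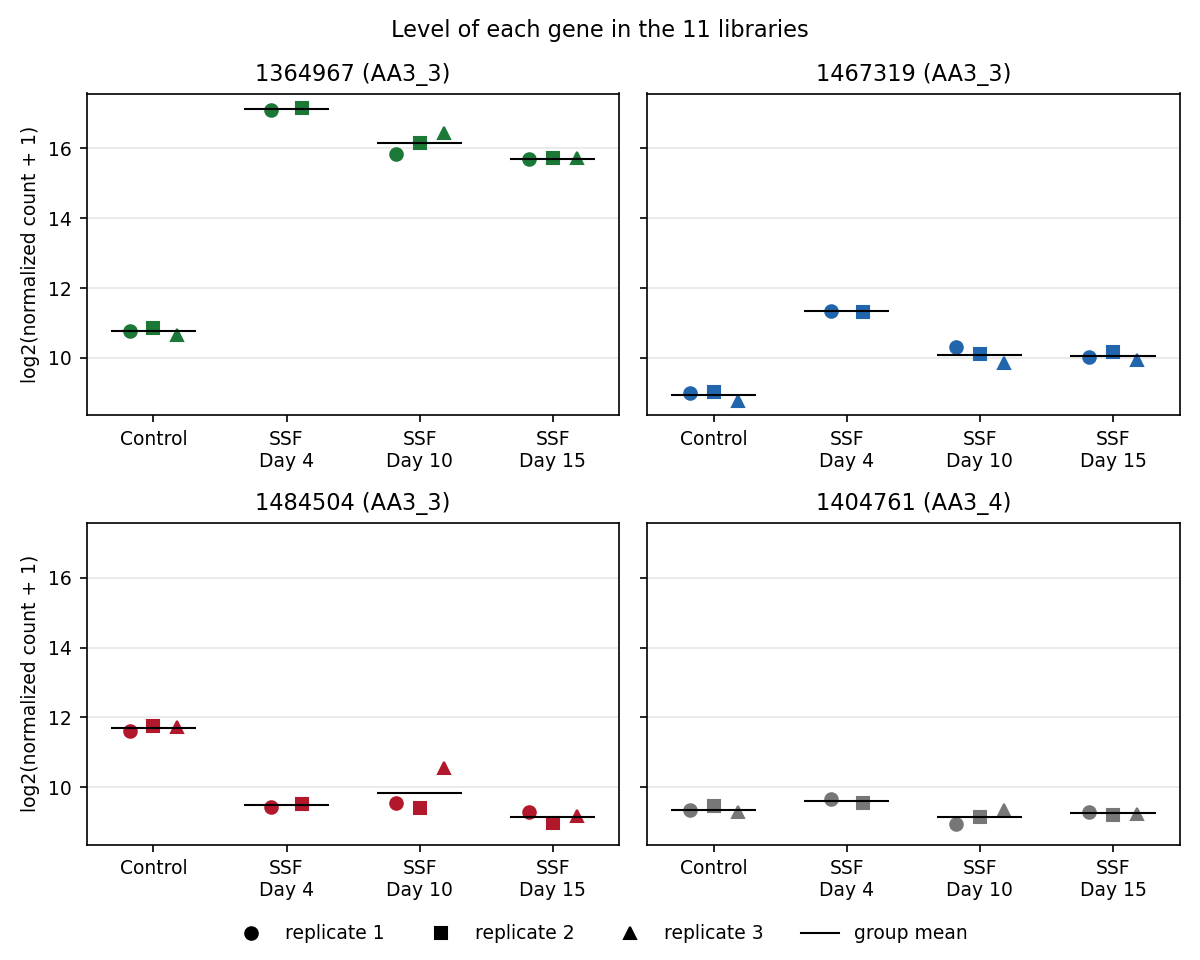
Level of each gene as log2(normalized count + 1), with 1 panel per gene, 1 point per library, symbols for replicate numbers and a bar for the group mean. The 8 SSF libraries of 1364967 and of 1467319 lie above the controls, those of 1484504 lie below, and those of 1404761 stay within 8.95 to 9.66.

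The dominant gene, 1364967, had normalized counts of 1735, 1863 and 1600 in the 3 control libraries. At Day 4 it had 139402 and 146061. At Day 10 it had 59227, 72472 and 88545. At Day 15 it had 52770, 53711 and 54082. No groups overlapped, and the order was Day 4, Day 10, Day 15, control. Its mean log2 level was 10.76 ± 0.11 (SD, n = 3) in the control. On straw it was 17.12 ± 0.05 (n = 2) at Day 4, 16.14 ± 0.29 (n = 3) after 10 days and 15.71 ± 0.02 (n = 3) after 15 days. Levels above 12 were taken as high by the study, and 1364967 exceeded this threshold at the 3 SSF times while the other 3 genes stayed below it in every group. The log2 fold change over the control was 6.32 ± 0.17 (SE, edgeR adjusted p = 5.9e-12) at Day 4, where it ranked 71 among the rises of all genes tested. It was 5.39 ± 0.16 (adjusted p = 1.6e-11) at Day 10 and 4.93 ± 0.16 (adjusted p = 2.6e-11) at Day 15. Among the 33 AA3 genes tested, this was the largest rise at each time. These leave out the cellobiose dehydrogenase gene 1364243 (AA8-AA3_1). Its log2 fold change over the control was 6.36 ± 0.23 at Day 4, 4.05 at Day 10 and 2.52 at Day 15.

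Within SSF, 1364967 declined. It was lower at Day 10 than at Day 4 by 0.93 ± 0.15 on the log2 scale (log2 fold change -0.93, edgeR adjusted p = 0.00022) and lower at Day 15 than at Day 4 (-1.39 ± 0.15, adjusted p = 3.9e-06). From Day 10 to Day 15 the change was -0.46 ± 0.13 (adjusted p = 0.025). This last call was lost when only the libraries of Days 10 and 15 entered the fit (adjusted p = 0.076) and when any 1 of the 3 Day 15 libraries was left out (adjusted p = 0.068 to 0.078). Between the SSF times, 3 of the 4 genes were called lower and 0 higher at Day 10 than at Day 4, where 44.3% of all genes were called (22% lower and 22.3% higher). From Day 4 to Day 15 there were again 3 lower and 0 higher, beside 57.8% of all genes (29.2% lower and 28.6% higher). From Day 10 to Day 15 there were 2 lower and 0 higher, beside 24.1% of all genes (12.4% lower and 11.7% higher). In these 3 comparisons edgeR also gave 0 of the 4 genes as higher at an unadjusted p under 0.05, as did the DESeq2 Wald test at an adjusted p under 0.05.

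The AA3_3 gene 1467319 had control normalized counts of 508, 514 and 435. Day 4 gave 2593 and 2560, Day 10 gave 1276, 1093 and 924, and Day 15 gave 1041, 1151 and 986. All SSF libraries exceeded all control libraries, Day 4 stood above every other group, and Days 10 and 15 overlapped. Mean levels were 8.92 ± 0.13 (n = 3), 11.33 ± 0.01 (n = 2), 10.09 ± 0.23 (n = 3) and 10.05 ± 0.11 (n = 3) on the log2 scale. Over the control, the log2 fold change was 2.36 ± 0.13 (edgeR adjusted p = 4e-09) at Day 4, 1.16 ± 0.12 (adjusted p = 2.4e-06) at Day 10 and 1.10 ± 0.12 (adjusted p = 3.3e-06) at Day 15. The rises at Days 10 and 15 were not called when tested against a fold of 2 (adjusted p = 0.16 and 0.28). The level then fell from Day 4 to Day 10 (-1.21 ± 0.13, edgeR adjusted p = 8e-06) and was lower at Day 15 than at Day 4 (-1.26 ± 0.13, adjusted p = 2.8e-06). Day 10 and Day 15 did not differ beyond their spread (-0.06 ± 0.12, adjusted p = 0.78), so the order ran from Day 4 through Days 10 and 15 together to the control.

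Gene 1484504 was the AA3_3 gene with the highest level in liquid culture, with normalized counts of 3100, 3458 and 3366. Day 4 gave 693 and 730, Day 15 gave 622, 497 and 576, and Day 10 gave 747, 679 and 1495. All SSF libraries lay below the control, and Day 10 replicate 3 stood above the other 2 libraries of its group. Mean log2 levels were 11.69 ± 0.08 (n = 3) for the control and 9.48 ± 0.05 (n = 2), 9.83 ± 0.62 (n = 3) and 9.14 ± 0.16 (n = 3) for Days 4, 10 and 15. The log2 fold change against the control was -2.26 ± 0.28 (edgeR adjusted p = 1.2e-05) at Day 4, -1.78 ± 0.23 (adjusted p = 2.2e-05) at Day 10 and -2.57 ± 0.24 (adjusted p = 8.4e-07) at Day 15. Without Day 10 replicate 3, the Day 10 value was -2.23 (adjusted p = 1.1e-09).

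The calls for 1484504 within SSF depended on single libraries. With all 11 libraries, Day 10 did not differ from Day 4 beyond the spread (0.48 ± 0.26, edgeR adjusted p = 0.16), nor did Day 15 (-0.31 ± 0.26, adjusted p = 0.34). Day 15 was lower than Day 10 (-0.79 ± 0.24, adjusted p = 0.028). Without Day 10 replicate 3, the log2 fold changes were 0.05 (adjusted p = 0.76) for Day 10 against Day 4, -0.29 (adjusted p = 0.034) for Day 15 against Day 4 and -0.34 (adjusted p = 0.041) for Day 15 against Day 10. Leaving out Day 10 replicate 2 instead gave 0.69 (adjusted p = 0.038) for Day 10 against Day 4. The fall from Day 10 to Day 15 was also lost in a fit of those 2 groups alone (adjusted p = 0.075) and without Day 15 replicate 2 (adjusted p = 0.11) or replicate 3 (adjusted p = 0.072). Day 10 replicate 3 had the lowest mean rank correlation with its own group of all 11 libraries (Spearman's rho across genes 0.986, against 0.989 to 0.997 for the other libraries).

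The AA3_4 gene 1404761 had control normalized counts of 646, 696 and 622. Day 4 gave 806 and 750, Day 10 gave 495, 569 and 647, and Day 15 gave 629, 591 and 604. The 2 Day 4 libraries were above all others, and the other 3 groups overlapped. Mean levels were 9.35 ± 0.08 (n = 3), 9.61 ± 0.07 (n = 2), 9.15 ± 0.19 (n = 3) and 9.25 ± 0.05 (n = 3) on the log2 scale, in the order Day 4, control, Day 15, Day 10, and no neighbours in this order passed the test. The log2 fold change against the control was 0.21 ± 0.12 (edgeR adjusted p = 0.15) at Day 4, -0.22 ± 0.11 (adjusted p = 0.1) at Day 10 and -0.13 ± 0.11 (adjusted p = 0.31) at Day 15. Without Day 10 replicate 3, the Day 10 value was -0.31 (adjusted p = 0.018). Scaling by library totals alone also gave calls, of -0.44 (adjusted p = 0.0052) at Day 10 and -0.39 (adjusted p = 0.01) at Day 15.

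Within SSF, 1404761 fell from Day 4 to Day 10 (-0.42 ± 0.12, edgeR adjusted p = 0.013) and from Day 4 to Day 15 (-0.33 ± 0.12, adjusted p = 0.031). The call at Day 10 was lost without Day 4 replicate 1 (adjusted p = 0.089), with library totals as the scale (adjusted p = 0.11) and in a fit of the 2 groups alone (adjusted p = 0.086). The call at Day 15 was lost with library totals (adjusted p = 0.18) and when any of 5 single libraries was left out, which were control replicate 1, Day 4 replicates 1 and 2, and Day 15 replicates 2 and 3 (adjusted p = 0.051 to 0.16).

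**Figure D2:**
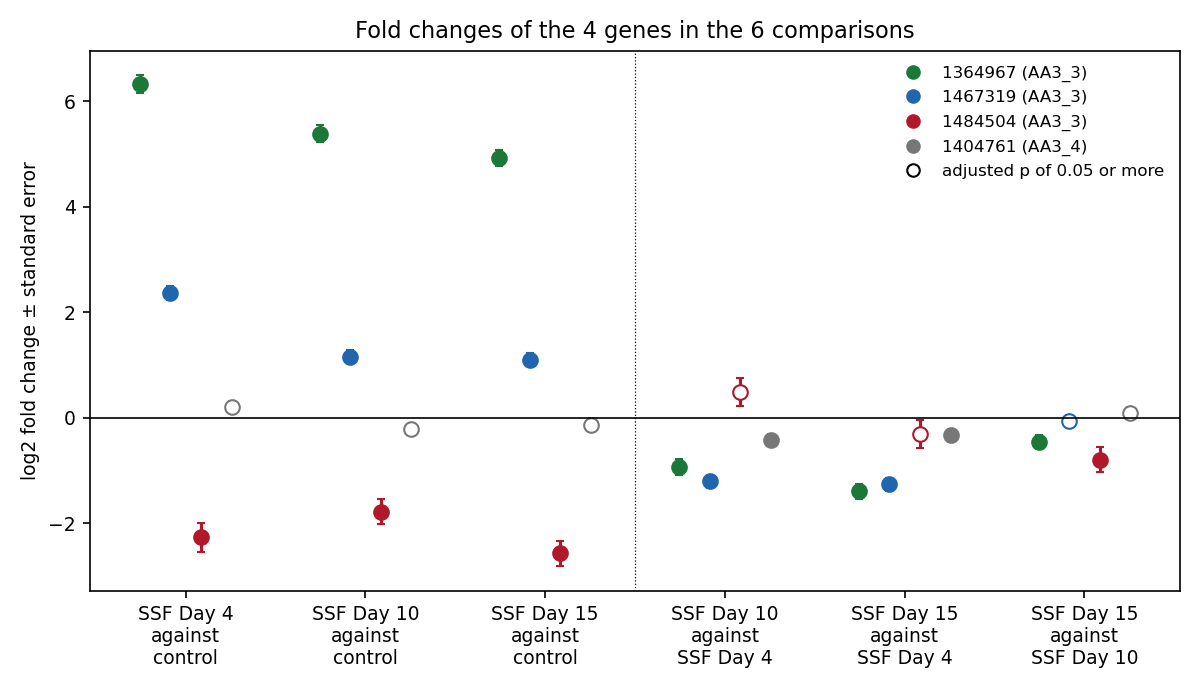
Log2 fold change of each gene in the 6 comparisons, with bars for the standard error of the edgeR fit and open points where the adjusted p was 0.05 or more. Against the control, 1364967 lay between 4.93 and 6.32, 1467319 between 1.10 and 2.36, 1484504 between -2.57 and -1.78, and 1404761 between -0.22 and 0.21.

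The difference in log2 normalized count between 2 genes of the same library does not depend on the scaling of that library, so the 6 pairs among the 4 genes were compared between the 8 SSF and the 3 control libraries with an exact two-sided permutation test over libraries (165 splits, smallest possible p = 0.00606). All 6 pairs reached this value, which stayed 0.00606 after adjustment over the 6 pairs. The pairs share 4 genes and the libraries of the fold changes above, so they are not separate evidence. The test also took the SSF times as 1 group. The widest shift was that of 1364967 relative to 1484504. In the control, 1364967 was lower by 0.93 ± 0.12 (log2 difference -0.93, n = 3), and in SSF it was higher by 5.89 to 7.65, a shift of 7.68. The pair thus exchanged order in every SSF library. Relative to 1467319, the shift of 1364967 was 4.01, from 1.83 ± 0.06 in the control to 5.84 on average in SSF. Gene 1467319 was below 1484504 in the control (log2 difference from -2.95 to -2.61, mean -2.77), and in SSF the difference ran from -0.69 to 1.90, a shift of 3.67. The AA3_4 gene 1404761 shifted against 1364967 by -5.52, against 1467319 by -1.52 and against 1484504 by 2.15.

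The makeup of the AA3_3 transcripts changed accordingly. Per kb of annotated gene span, 1484504 gave 59.6 ± 2.19% of the AA3_3 reads in the control (n = 3), 1364967 gave 32.9 ± 1.59% and 1467319 gave 7.48 ± 0.62%. On straw, 1364967 gave 98.1 ± 0.057% at Day 4 (n = 2), 97.6 ± 0.40% at Day 10 (n = 3) and 97.5 ± 0.11% at Day 15 (n = 3). The share of 1484504 on straw lay between 0.462% and 1.56% in the 8 libraries, and that of 1467319 between 0.825% and 1.70%, although the counts of 1467319 had risen. The 3 genes together took 0.0224% to 0.0244% of all counts in the control libraries. They took 0.455% and 0.464% at Day 4, 0.216%, 0.258% and 0.332% at Day 10, and 0.186% to 0.194% at Day 15. In these bulk libraries fewer cells expressing a gene and less of its RNA per cell cannot be told apart.

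**Figure D3:**
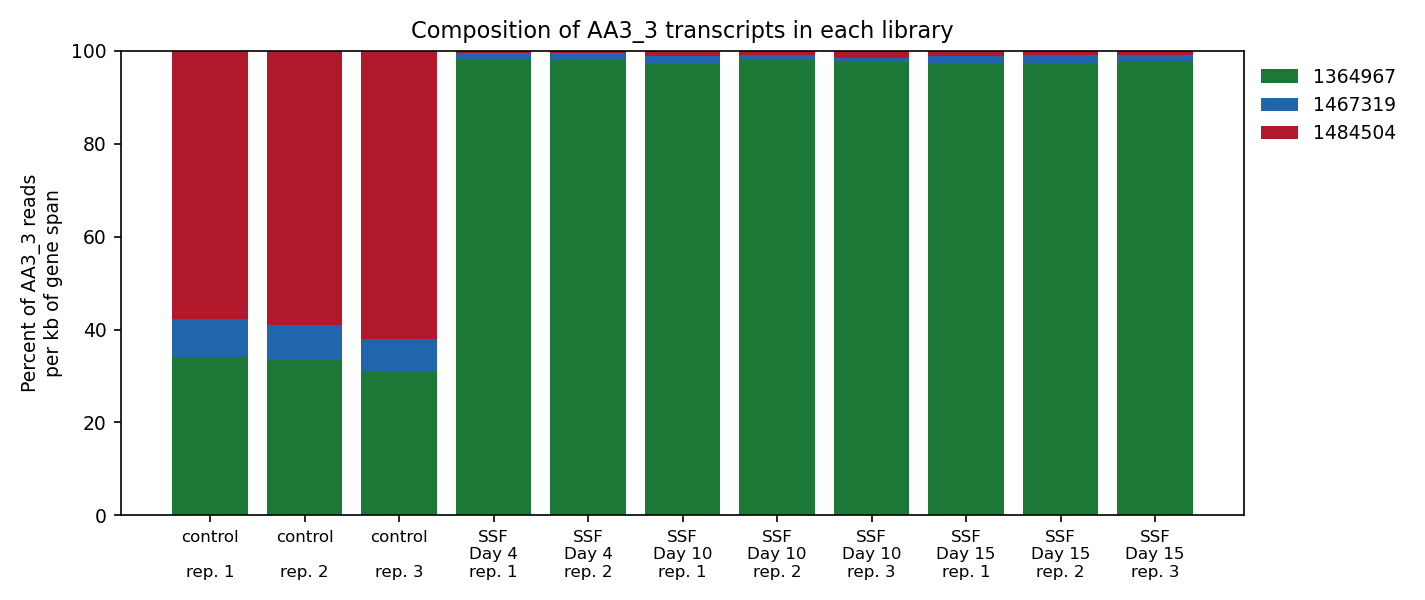
Share of each AA3_3 gene in the AA3_3 reads per kb of gene span (percent, stacked to 100) in each of the 11 libraries. Gene 1484504 takes 57.8% to 62.1% in the 3 control libraries, and 1364967 takes at least 97.1% in each of the 8 SSF libraries.

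Per kb of gene span, levels can be set beside those of other genes. Gene 1364967 stood at percentile 80.2 of the 18240 genes with a span, expressed or not, in the control and at 99.8, 99.6 and 99.3 at Days 4, 10 and 15. Among the 36 AA3 genes its control rank was 12, and its SSF ranks were 1, 2 and 1. It alone gave 2.24 ± 0.11% of the AA3 reads per kb in the control and 53.2 ± 2.6% at Day 4, followed by 32.5 ± 3.26% at Day 10 and 39.7 ± 1.27% at Day 15. Gene 1484504 ranked 5 among the AA3 genes in the control and 17, 15 and 17 on straw. Gene 1467319 moved from rank 25 to ranks 9, 16 and 13, and the AA3_4 gene 1404761 held ranks of 18 to 21 in all groups.

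The other 32 AA3 genes are 30 of subfamily AA3_2, which includes aryl alcohol oxidases and glucose oxidases and dehydrogenases, and 2 with no subfamily. They did not move one way. Of the 29 with enough counts to be tested, 8 were higher, 10 were lower and 11 were not called at Day 4 against the control. This split was near that of all genes tested (30.1% higher and 32.2% lower). The median log2 fold change was -0.04 beside -0.07 for all genes tested. At Day 10, 13 were higher and 11 lower (median 0.12), beside 31.5% and 31.1% of all genes. At Day 15, 11 were higher and 12 lower (median 0.07), beside 33% and 33%. The median of all genes was -0.02 at both times. From Day 4 to Day 15, 5 rose and 12 fell, beside 28.6% and 29.2% of all genes (median -0.27, beside 0.01 for all genes). The largest rise at Day 4 was that of the AA3_2 gene 823803 (5.12 ± 0.14, edgeR adjusted p = 5.6e-12), whose level went from 9.82 in the control to 14.98 at Day 4 and 12.77 at Day 15, and whose fall from Day 4 to Day 15 was the largest of these genes (-2.18 ± 0.12, adjusted p = 1.5e-08). The largest rise from Day 4 to Day 15 was that of the AA3_2 gene 1349968 (2.71 ± 0.22, adjusted p = 4.2e-07), at a time when 1364967 and 1467319 fell.

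**Figure D4:**
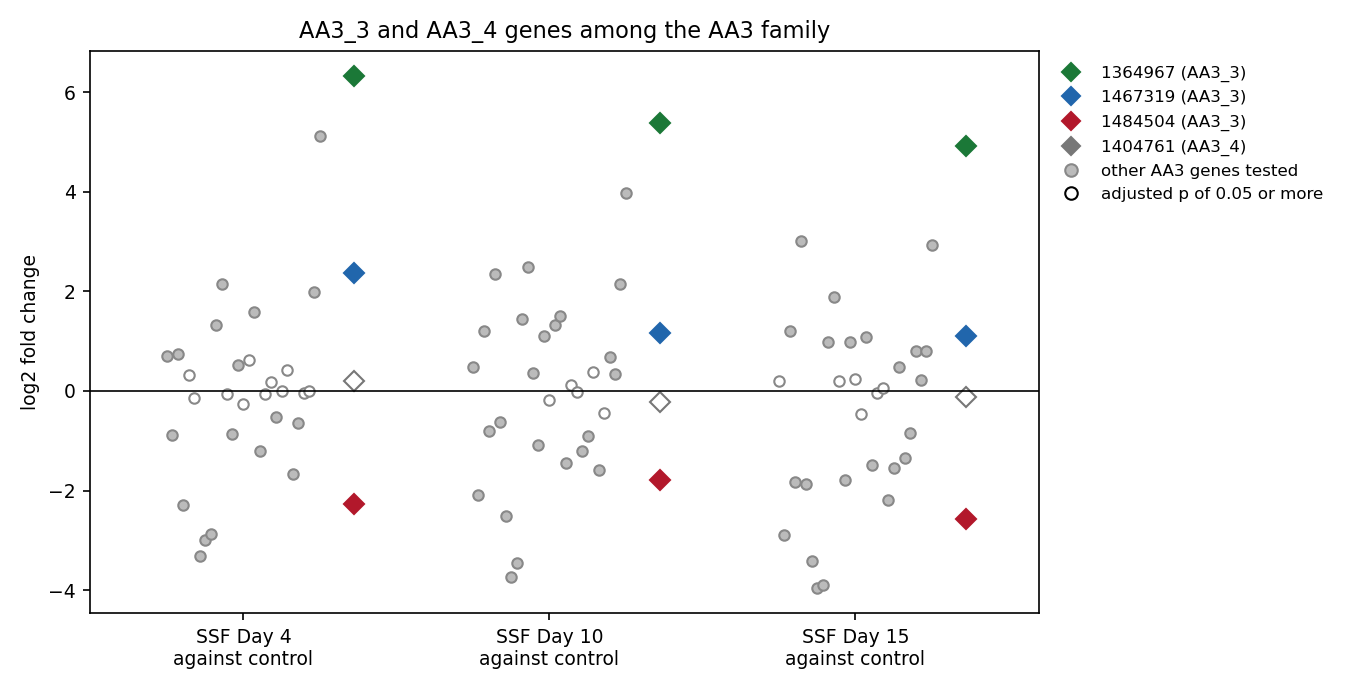
Log2 fold change of the 33 AA3 genes tested at each SSF time against the control, with circles for the 29 other AA3 genes (in order of ProtID along the x axis within each time), diamonds for the AA3_3 and AA3_4 genes and open symbols where the adjusted p was 0.05 or more. The 1364967 diamond is the highest point at all 3 times, and 1484504 is the fifth from the bottom at each.

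Other genes tied to hydrogen peroxide were counted for context. The 19 AA2 peroxidase genes held 15 called higher and 3 called lower in Day 4 samples than in controls (median log2 fold change 7), with the largest rise in the versatile peroxidase 1360396 (12.52 ± 0.19, edgeR adjusted p = 2.6e-13) and the largest fall in the short manganese peroxidase 1363610 (-3.39 ± 0.18, adjusted p = 2.2e-09). Of all genes tested, 30.1% were called higher and 32.2% lower at Day 4 against the control. From Day 4 to Day 15, 13 AA2 genes fell and 5 rose (median -1.83), beside 29.2% lower and 28.6% higher among all genes. The largest change downwards was -9.91 in the versatile peroxidase 1359988, and the largest upwards was 3.57 in the short manganese peroxidase 1347226. The 3 AA5_1 genes, copper radical oxidases that make hydrogen peroxide from glyoxal and related aldehydes, all rose at Day 4 (median 9.18, with 10.77 for 1557562), and their median change from Day 4 to Day 15 was -0.17. These 3 were listed by the study for their levels in these libraries, so their direction is no independent evidence. The cellobiose dehydrogenase gene 1364243 (AA8-AA3_1), which oxidizes cellobiose, rose by 6.36 ± 0.23 at Day 4 (adjusted p = 5.5e-11) and fell by 3.83 from Day 4 to Day 15 (log2 fold change -3.83, adjusted p = 8.5e-09). The fall of 1364967 over the same interval was -1.39.

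Genes most like each member were found by Pearson's r of log2 levels over the 11 libraries, among the 15461 other genes tested. These values describe a shared order of 4 groups of libraries and their scaling, and say nothing of function. For 1364967 the highest r were those of 1398198 (0.999), annotated by the study as a cytochrome P450 of family CYP53, and 1396569 (0.998), to which the sources give no name. Over the 8 SSF libraries alone their r with 1364967 was 0.976 and 0.961, and they ranked 284 and 629 among the 15461 genes. A total of 625 genes had an r above 0.95 with 1364967 and 68 had one above 0.99, so a course of this shape was common. Gene 1398198 had normalized counts of 160 to 208 in the control, 18498 and 21290 at Day 4 and 7559 to 8142 at Day 15. Among the lists of redox enzymes, the short manganese peroxidases 855582 (r = 0.988) and 1340324 (r = 0.986) were nearest to 1364967, and over the 8 SSF libraries alone their r was 0.877 and 0.542.

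For 1467319 the nearest genes were 1477447 (r = 0.995) and 1405633 (r = 0.994), both without a name in the sources used here. Within the 8 SSF libraries their r was 0.987 for each, at ranks 13 and 11. In the lists, the versatile peroxidase 1360396 (r = 0.959) and the cellobiose dehydrogenase 1364243 (r = 0.954) came nearest to 1467319. For 1404761 no gene reached an r of 0.95. The nearest were 696636 (0.934) and 1409740 (0.926), also unnamed, with 0.938 for each within SSF (ranks 36 and 37), and in the lists the AA3_2 gene 1483588 (0.634) and the versatile peroxidase 1359988 (0.574).

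The genes nearest to 1484504 were 1062876 (r = 0.991), which has no name in the sources used here, and the AA3_2 gene 1358588 (r = 0.991), the gene with the largest fall among the other AA3 genes at Day 4 (-3.31 ± 0.28, edgeR adjusted p = 2.9e-07). The normalized counts of 1358588 were 2935 to 2965 for the control. They were 315 and 297 for Day 4, 400, 377 and 796 for Day 10, and 306, 281 and 257 for Day 15. Its Day 10 replicate 3 was thus high in the same way as for 1484504, and 1062876 had 482 in that library beside 261 and 235 in the other 2. Within the 8 SSF libraries the r of 1484504 was 0.944 with 1358588 (rank 20) and 0.952 with 1062876 (rank 11). The next in the lists, the generic peroxidase 1560842, had an r of 0.938 over all libraries and 0.436 within SSF.

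Among the members themselves, the r of 1364967 with 1467319 was 0.886 over 11 libraries and 0.841 within the 8 SSF libraries. The r of 1364967 with 1484504 was -0.89 over all libraries and 0.360 within SSF, so their opposition lay between liquid culture and straw. For 1404761 and 1364967 the r was 0.028 over all libraries and 0.811 within SSF, where both were highest at Day 4.

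The annotated neighbours of 3 of the 4 genes are close enough to bear on the counts, since the library kit does not mark strand and no source used here states how overlapping genes were handled. The span of 1404761 overlaps that of its neighbour 656532 by 120 bp of 3341 bp, and 656532 was higher in SSF than in the control by 3.15, 3.30 and 3.30 on the log2 scale at Days 4, 10 and 15. Gene 1484503 lies 80 bp from 1484504 and rose by 2.26, 2.33 and 2.26 while 1484504 fell. The gene on the other side of 1484504, 1405623, lies 490 bp away and fell as well (log2 fold changes -1.39, -1.93 and -1.40). A gene 97 bp from 1467319, 1412427, rose by 1.81, 1.98 and 1.84. What part reads from these neighbours had in the counts of the members was not tested. The nearest gene to 1364967 lies 872 bp away and was lower by 1.20 on the log2 scale at Day 4 (log2 fold change -1.20). The log2 fold change of this neighbour was -0.44 at Day 10 and -0.0095 at Day 15. Neighbours were taken by position in a gene table that names no scaffolds, and were looked up after the values of the members had been seen.

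Library totals ran from 20368063 to 42408348 counts and were larger in the control (35964192 to 42408348) than in SSF (20368063 to 36542662). The lowest count of any of the 4 genes in any library was 373, and all 4 passed the filter on low counts. Scaling by library totals alone, in place of the trimmed mean of M values, moved the Day 4 median over all genes on the log2 scale from -0.07 to -0.45. The share of higher among called genes then went from 48.3% to 28.5% at Day 4, from 50.4% to 35.6% at Day 10 and from 50% to 35.6% at Day 15 against the control, and from 50.4% to 64.7% for Day 10 against Day 4. The directions of 1364967, 1467319 and 1484504 against the control were the same under both scales. That of 1404761 at Day 4 was not, with 0.21 under the trimmed mean of M values and -0.17 under library totals, neither of them called.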

How the data were processed

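The values are raw counts of reads per predicted gene, made by the authors and deposited as 1 table of 18244 genes and 11 libraries. The authors prepared cDNA with a kit that does not mark strand, trimmed paired reads (75 bp by the labels), mapped them with TopHat to the genome of a monokaryotic derivative, kept unique mappings and counted them with HTSeq. For normalization, DESeq 1.5 stands in the submitters' processing notes, whereas the paper names DESeq2. The paper names TopHat2 for the mapping. No source used here gives the release numbers of TopHat and HTSeq or the counting mode. The authors call the cultures biological replicates, but whether libraries came from separate columns is not stated for RNA. For the biochemical measures, the paper states that straw of the replicates was pooled and homogenized. The p-values therefore measure the spread between these libraries, which may not be that between separate cultures.

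Genes were tested with edgeR 4.0.16 in R 4.3.3 (TMM; filterByExpr, minimum count 10, minimum total 15; 4 group means; 7 residual degrees of freedom, quasi-likelihood F test, Benjamini-Hochberg adjustment over 15462 genes, threshold 0.05). The SE was taken as |log2 fold change| over √F. Levels use size factors of DESeq2 1.42.0 and are given as log2 of the normalized count plus 1. Gene spans and neighbours come from the RefSeq gene table of the monokaryon assembly, matched by locus tag for 18240 genes. Span includes introns, since no coding length was at hand, and no sequences were used here. Figures were drawn with matplotlib. The edgeR fit was tested on simulated counts for Day 4 against the control. The other calculations were not tested in this way.

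The members and lists were chosen with earlier results of these data known. Named genes are the 4 members, the largest rise and fall called in each list at Day 4 against the control and at Day 15 against Day 4, and the 2 genes of all and the 2 of the lists with the highest r with each member. The AA5_1 list was chosen by the study on these libraries. A list by product name was not made, because the tables hold no product names. Alternatives were DESeq2 size factors, library totals, the DESeq2 Wald test, no filter, a minimum of 50 counts, a replicate block, a test against a fold of 2 (glmTreat), only the 2 groups compared, and each library left out in turn, and, for levels, TMM scaling and a pseudocount of 0.5.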

Additional observations from a re-analysis of the deposited data

How the results depend on the processing

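Of 456 values of the members' log2 fold changes under alternatives, 426 stayed on the same side of the threshold, 25 lost the call, 5 gained one and 0 called values changed sign. The pair tests could not lose their call with a library left out, as no pair overlapped between the control and SSF, and say nothing of stability. Tested against a fold of 2, calls were lost for 1364967 at Day 10 against Day 4 (-0.93) and Day 15 against Day 10 (-0.46), for 1467319 at Day 10 (1.16) and Day 15 (1.10) against the control and at Day 10 (-1.21) and Day 15 (-1.26) against Day 4, for 1484504 at Day 15 against Day 10 (-0.79), and for 1404761 at Day 10 (-0.42) and Day 15 (-0.33) against Day 4. This left 1 member higher at Day 10 and 1 at Day 15 against the control, and 0, 1 and 0 lower at Day 10 against Day 4, Day 15 against Day 4 and Day 15 against Day 10. With library totals as the scale, 1404761 was called lower than the control at Day 10 (-0.44) and Day 15 (-0.39), which made 2 members lower in each, and its changes from Day 4 to Day 10 (-0.27) and Day 15 (-0.22) were not called. In fits of only the 2 groups compared, calls were lost for 1404761 at Day 10 against Day 4 (-0.40) and for 1364967 (-0.46) and 1484504 (-0.79) at Day 15 against Day 10, which left 0 lower there.

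With each library left out in turn, 1404761 ranged from -0.31 to -0.12 at Day 10 against the control, from -0.50 to -0.31 at Day 10 against Day 4 and from -0.38 to -0.28 at Day 15 against Day 4. For Day 15 against Day 10, 1364967 ranged from -0.59 to -0.31 and 1484504 from -0.999 to -0.34. For 1484504, Day 10 against Day 4 ranged from 0.050 to 0.69 and Day 15 against Day 4 from -0.38 to -0.22. Members called lower ranged from 1 to 2 at Day 10 against the control and from 0 to 2 at Day 15 against Day 10, and those called higher at Day 10 against Day 4 from 0 to 1. The causes were not tested, beyond the smaller number of libraries in these fits.

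Libraries with the same replicate number shared no label beyond it. Correlations of same-numbered deviations from group means lay between -0.023 and 0.171, and no pair of groups with 3 numbers had all above 0.1. In 12 of 18 cases a library correlated best with its own number in another group of 3, a hint from the data and not from the design. Each case had 3 candidates, so some matches would arise without any pairing. The cases were not independent, as the same pairs of libraries were read from both sides. With the replicate block, 1364967 at Day 4 was 6.35 over the control, 1484504 was -2.14 and 1467319 was 2.29. The block moved no member by more than 0.192 and changed 0 of 24 calls. Of the members' mean levels under other scalings or pseudocounts, 37 moved by less than 1 SD of the replicates and 11 by more, 10 of these with library totals as the scale. Shares of AA3_3 reads moved by more than 1 SD in 7 cases and by less in 5 when taken per kb of gene span, and all 15 values of r with the named genes changed over the 8 SSF libraries. Every member had at least 373 counts in each library.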
